A study of Canis lupus familiaris with 77 samples.

Results

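The miRNA content of blood plasma was compared with that of the solid tissues of untreated male beagle dogs less than a year old, using miR-seq read counts. The 5 plasma samples were chosen by their tissue label and came from 2 mL of blood plasma in K2EDTA, an anticoagulant. They were set against 66 samples of 14 solid tissues, which are thymus, testis, skeletal muscle, sciatic nerve, pancreas, lung, liver, kidney, heart, brain and the gut segments duodenum, jejunum, ileum and colon. There were 5 samples of each solid tissue apart from colon with 4 and sciatic nerve with 2. The study pooled nerve RNA of several dogs because yields were low, so a nerve sample may not be a single animal. Its methods describe a pool that was split into replicates, so the 2 nerve samples may also share a pool. Its results describe a mix of single and pooled nerve samples. With the 5 bone marrow samples, which stand outside the comparison, the series held 76 samples with values. The dogs were perfused with saline before the organs were taken, which washes blood out of the vessels, and the study isolated plasma RNA by a method of its own. Plasma and its RNA isolation therefore cannot be told apart in these data. The study took the tissues from 5 dogs, so samples of different tissues, plasma included, share animals. No label names the dog of a sample, so the fit treats all samples as independent and the p-values measure the spread between samples.

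Plasma holds no cells of its own once it has been separated. The miRNAs in it travel bound to Argonaute proteins and lipoproteins or inside vesicles, and blood cells are known to be a major source of them. miR-451, miR-144 and miR-486 are erythroid miRNAs, made in large amounts as red cells mature, and miR-223, miR-142 and miR-150 mark white cells. A tissue-restricted miRNA such as miR-122 of the hepatocyte is followed in the circulation because injured cells release it, so its level in plasma of untreated animals is the baseline against which a leak is read.

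The plasma libraries were dominated by a single miRNA. miR-486 took 76.1% of the miRNA reads of plasma replicate 1 (95% Wilson interval 75.9 to 76.2), 42.3% of replicate 2 (42.3 to 42.4), 57.9% of replicate 3 (57.8 to 58.0), 51.3% of replicate 4 (51.3 to 51.4) and 60.0% of replicate 5 (60.0 to 60.1), or 57.5% ± 12.5 (SD, n = 5). These intervals cover counting error only, and the samples differed by far more than that. In the 66 solid tissue libraries the share ran from 0.0475% to 27.5%, with the highest value in heart, and in bone marrow from 5.27% to 9.32%. Every plasma library thus exceeded every other library. The 10 most abundant miRNAs of a plasma library made up 75.9% to 92.0% of its reads, and 8 to 25 miRNAs sufficed for 90% of them, against 9 to 49 in the solid tissues.

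**Figure D1:**
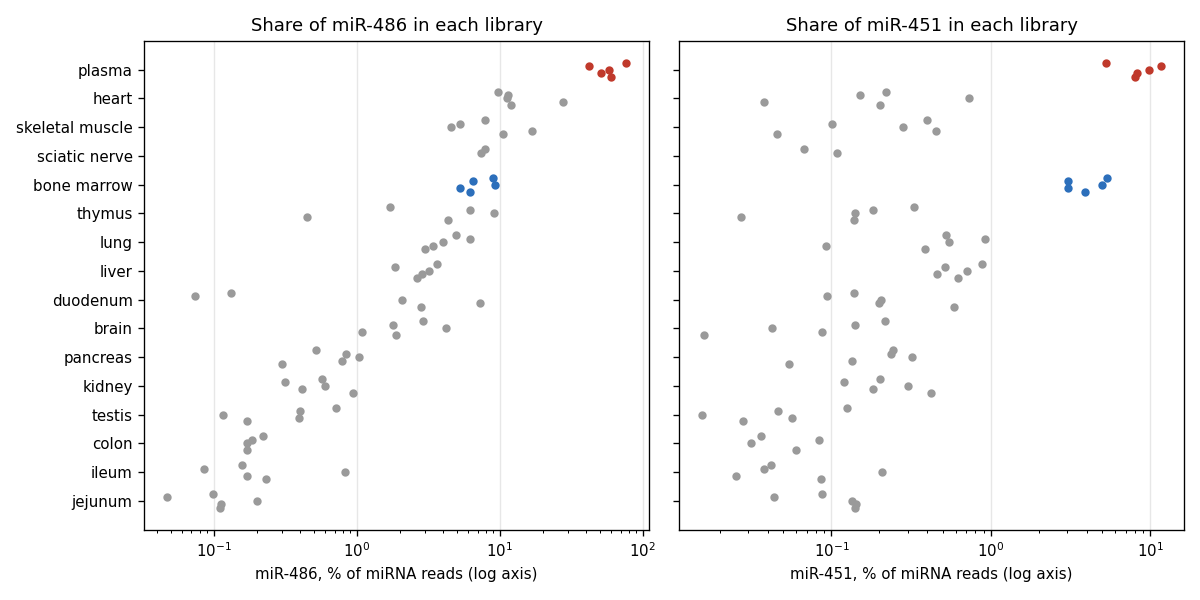
Share of miRNA reads taken by miR-486 (left) and miR-451 (right) in each of the 76 libraries, in percent on a log axis; each point is 1 library, red for plasma, blue for bone marrow and grey for solid tissue, with tissues ordered by their median share of miR-486. All 5 plasma points lie to the right of every other point for miR-486, from 42.3% to 76.1%, and the highest solid tissue point is a heart library at 27.5%.

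The plasma libraries held 274790 to 1765863 miRNA reads and the solid tissue libraries 157871 to 7896424. A plasma library contained 229 to 387 miRNAs with at least 1 read (median 360), and 223 miRNAs were read in all 5. When every library was thinned to 157871 reads, the size of the smallest, the plasma median was 241 (range 202 to 260), the lowest of the 16 tissues, with kidney next at 254 (249 to 267) and brain highest at 381. Replicates 1 and 2 stood apart from the other plasma samples. Replicate 1 was the shallowest, with the highest share of miR-486, and it held the lowest value for 88 of the 101 miRNAs with a plasma median of at least 100 RPM, the unit that divides the reads of a miRNA by all miRNA reads of its library. Replicate 2 held the highest value for 66 of those 101. Because RPM values share a fixed total, a large miR-486 share lowers the RPM of every other miRNA in the same library. Fewer cells of a type and less RNA per cell cannot be told apart in any sample of this kind.

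The first question was how many miRNAs differed between plasma and the solid tissues. Of 650 miRNAs with a read in any library, 480 passed the filter on low counts. edgeR's quasi-likelihood test with Benjamini-Hochberg adjustment called 138 of them higher in plasma than the mean of the 14 tissues (28.8%) and 144 lower (30%), at an adjusted p under 0.05. Here and below this mean is taken on the log scale of the fit. A single tissue with a very high level therefore moves it little, and a miRNA called higher can lie under the plain average of the tissue levels. At least 5-fold differences were called for 66 miRNAs higher (13.8%) and 88 lower (18.3%). In 14 separate contrasts of the same fit, 46 miRNAs were higher in plasma than in each solid tissue (9.58%) and 32 were lower than in each (6.67%). The last count was 18 and 19 when sciatic nerve replicate 1 or 2 was left out, which leaves a lone nerve sample that is assumed to vary like the other groups. The 5 plasma RPM values lay above all 66 solid tissue values for 15 miRNAs (3.12%) and below all of them for 14 (2.92%). Without plasma replicate 1 the first of these became 24, and without replicate 2 the second became 26. Of the 144 lower calls, 42 were of miRNAs with at most 3 reads in each plasma library.

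The balance between higher and lower depended on the scaling. The median log2 fold over the 480 miRNAs was -0.66 with TMM factors, -1.11 with the deposited totals and -0.35 with totals that leave miR-486 out. With the deposited totals 98 miRNAs were called higher and 170 lower, so that 36.6% of the calls were higher in place of 48.9%. With totals that leave miR-486 out there were 157 and 112, or 58.4% higher. The folds below were fitted with TMM and are best read against the median of -0.66. Of the 480 miRNAs behind it, 165 had at most 3 reads in each plasma library. The median also moved with the filter and the tool. It was -0.19 with a mean of at least 10 RPM, -0.38 with no filter and -0.23 with DESeq2. Without sciatic nerve replicate 1 or 2 that median was -0.29 or -0.31, and the fitted folds of many miRNAs lay higher as well, as for miR-26a (-2.70 and -2.69 in place of -3.43), miR-331 (-1.59 and -1.65 in place of -2.37) and miR-383 (6.09 and 6.08 in place of 5.38). With both nerve samples kept in the fit and nerve left out of the contrast alone, the median was -0.68. The filter and the TMM factors were computed anew in each run that left out a sample. Their part in the shifts without a nerve replicate, here and below, was not tested. Counts of list members given below stand beside 28.8% higher and 30% lower over all 480. The mean over tissues also has a limit. Of the 138 higher calls, 88 had a plasma median under the median of at least 1 solid tissue, and 39 were called lower in plasma than 1 or more tissues.

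**Figure D2:**
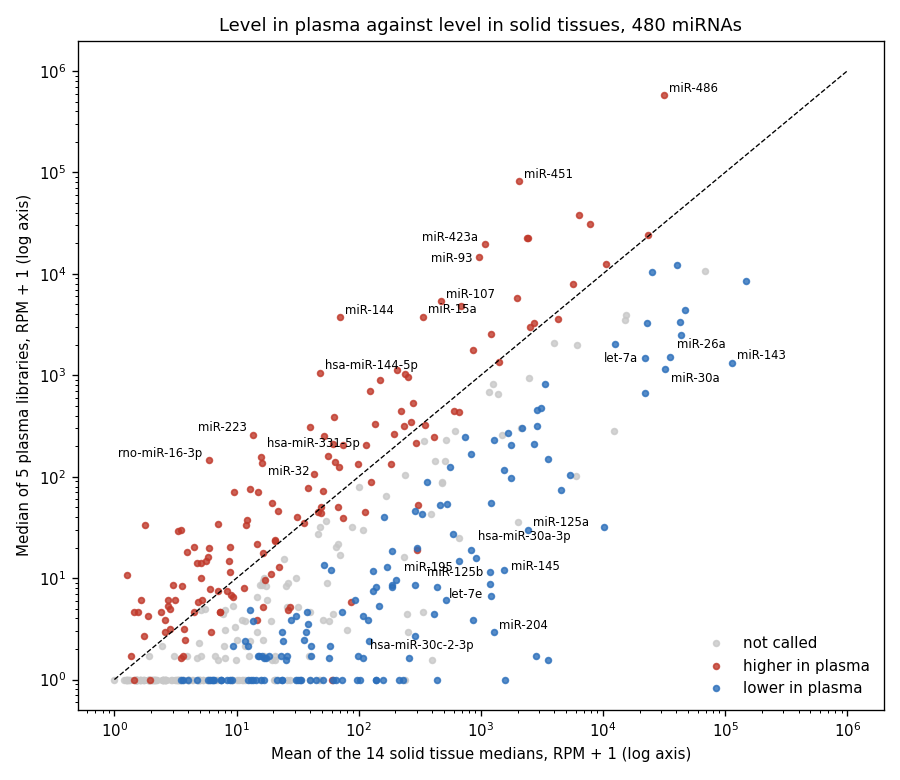
Median RPM of the 5 plasma libraries against the mean of the 14 solid tissue medians for the 480 miRNAs tested, both as RPM + 1 on log axes; red points were called higher in plasma (138), blue points lower (144) and grey points were not called, and the dashed line marks equal levels. The calls rest on the mean of the tissues on the log scale, so a red point can lie under the line. miR-486 and miR-451 lie highest, and miR-143 is the labelled miRNA with the highest tissue level on the blue side.

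The erythroid miRNAs gave the widest separation. All 4 tested entries of the red cell list, miR-486, miR-451, miR-144 and hsa-miR-144-5p, were higher in plasma than in each of the 14 solid tissues, with a median log2 fold of 6.25 beside -0.66 over all 480. miR-486, which is also expressed in heart and skeletal muscle, measured 760806, 423281, 579253, 513302 and 600372 RPM in plasma replicates 1 to 5. The solid tissue samples ran from 475 to 274598 RPM, and the tissue with the highest median was heart at 113425 RPM. The log2 fold was 6.03 ± 0.36 (SE; edgeR adjusted p = 1.49e-24). The entry joins both arms and both strands of this palindromic hairpin, so the arms cannot be given apart.

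miR-451, a product of Argonaute 2 cleavage in the red cell lineage, stood at 52993, 116508, 98088, 82461 and 79853 RPM in plasma. No solid tissue sample exceeded 9124 RPM, a lung value, and the bone marrow samples lay between 30394 and 53472 RPM, which overlapped replicate 1. Its log2 fold was 6.47 ± 0.31 (adjusted p = 8.75e-30). miR-144, which is cut from the same primary transcript, measured 1925 RPM in replicate 1 and 3724 to 3979 RPM in the other 4. The highest solid value was 665 RPM in liver, and the log2 fold was 6.98 ± 0.34 (adjusted p = 2.79e-29), the largest of the non-overlapping miRNAs. The other arm, hsa-miR-144-5p, ran from 633 to 1467 RPM in plasma and up to 416 RPM in solid tissue. In liver, the tissue with the highest median of miR-451 and both arms of miR-144, these medians were 6236, 399 and 166 RPM. Bone marrow overlapped plasma for hsa-miR-144-5p, at 619 to 1502 RPM. The genes of miR-144 and miR-451 are neighbours on the dog assembly UU_Cfam_GSD_1.0, less than 10000 bases apart.

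The log2 ratio of miR-451 to miR-23a, which is used in human plasma as a sign of red cell lysis, was 6.63, 5.30, 6.60, 5.52 and 5.89 in replicates 1 to 5. It ran from -2.41 to 4.34 in the solid tissues and from 4.47 to 5.54 in bone marrow. Neither red cell lysis nor carry-over of cells was measured otherwise, and their part in the erythroid levels was not tested.

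**Figure D3:**
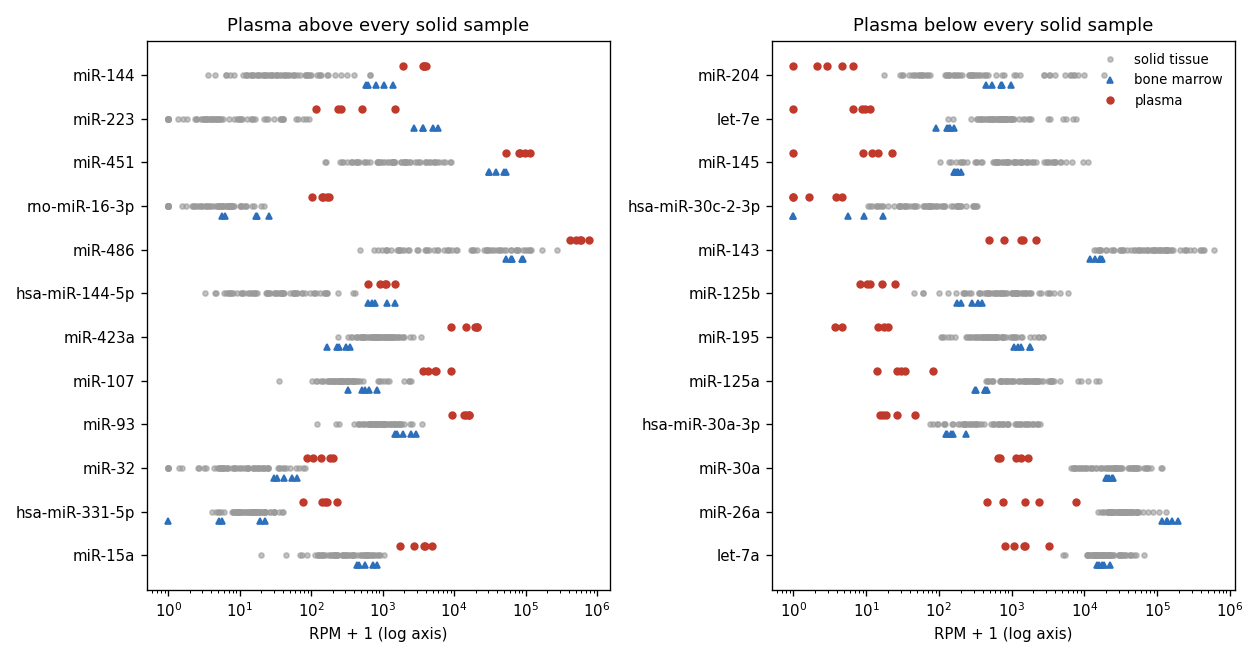
RPM + 1 on a log axis for the 12 miRNAs with the largest fold among those whose plasma values lay above every solid tissue sample (left) and the 12 with the largest fold among those below (right); red points are the 5 plasma libraries, grey points the 66 solid tissue libraries and blue triangles the 5 bone marrow libraries. Red and grey do not overlap in any row, since the rows were chosen for that. Bone marrow lies above every plasma value for miR-223, at 2727 RPM or more.

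Members of the miR-17 clusters, proliferation-associated miRNAs encoded in 3 related polycistrons, were also higher in plasma. Of 20 tested entries 16 were called higher and 2 lower (none lower without sciatic nerve replicate 1 or 2), with a median log2 fold of 2.80, and 11 were higher than in each solid tissue. In the miR-106b cluster, whose 3 genes are neighbours on the same assembly, miR-25, miR-93 and the 3p arm of miR-106b lay above every solid sample, and miR-106b itself, at 273 to 632 RPM, overlapped a highest solid value of 286 RPM. miR-25 measured 13891, 25108, 23008, 21592 and 22520 RPM in plasma and 443 to 7803 RPM in solid tissue (log2 fold 3.93 ± 0.14, adjusted p = 1.17e-36). miR-93 measured 9192 to 16250 RPM in plasma and at most 3563 RPM in any solid sample (log2 fold 4.62 ± 0.14, adjusted p = 2.06e-40). hsa-miR-106b-3p ran from 342 to 904 RPM against at most 325 RPM (log2 fold 3.28 ± 0.16).  miR-92a, at 18079 to 39720 RPM, overlapped the solid tissues, where a testis sample reached 31665 RPM, but its log2 fold of 2.75 ± 0.19 passed the test (adjusted p = 5.84e-21). Its cluster mate miR-19b ran from 433 to 3138 RPM, with the highest value in replicate 2 (log2 fold 3.12 ± 0.32).

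The miR-15 and miR-16 family, which shares a seed and restrains the cell cycle, was split. Of 9 tested entries 6 were higher and 3 lower. miR-424 fell on both sides. Its entry cfa-miR-424, at 4.32 to 14.1 RPM in plasma, was called higher, and hsa-miR-424-5p, at 0 to 21.5 RPM, was called lower. miR-16 measured 18530, 45944, 39860, 36269 and 37816 RPM in plasma, with 24209 RPM as the highest solid value, in thymus, so the groups overlapped only through replicate 1 (log2 fold 3.18 ± 0.19, adjusted p = 8.37e-24). miR-15a, encoded beside miR-16, ran from 1754 to 4900 RPM and was above every solid sample, where the highest was 1060 RPM (log2 fold 4.11 ± 0.24). The other strand of miR-16, named rno-miR-16-3p, measured 102, 166, 176, 141 and 145 RPM against at most 20.9 RPM in solid tissue (log2 fold 6.24 ± 0.28, adjusted p = 3.49e-31). miR-195 and miR-497, which have the same seed and are encoded together at another locus, went the other way. miR-195 measured 3.64, 18.7, 13.7, 16.6 and 2.77 RPM in plasma and 105 to 2727 RPM in the solid samples (log2 fold -4.97 ± 0.41, adjusted p = 1.60e-17). For miR-497 the values were 3.64 to 63.9 RPM and 61.7 to 1196 RPM (log2 fold -2.07 ± 0.37).

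Several miRNAs without a place on these lists were among the most abundant in plasma. miR-423a, whose joined names include hsa-miR-423-5p, measured 14717, 9016, 20890, 21043 and 19489 RPM. Its solid tissue range was 234 to 3403 RPM, with the highest median in sciatic nerve at 2908 RPM, and bone marrow held 167 to 345 RPM. The log2 fold was 4.95 ± 0.16 (adjusted p = 4.46e-40). Replicate 2, the highest plasma sample for most abundant miRNAs, was the lowest for this one. The opposite arm, deposited under the joined name hsa-miR-3184-5p with hsa-miR-423-3p, ran from 3031 to 7581 RPM against 168 to 1349 RPM (log2 fold 3.61 ± 0.15).

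miR-107 measured 3643, 4286, 5608, 9034 and 5365 RPM in plasma and at most 2487 RPM in solid tissue, in brain (log2 fold 4.80 ± 0.13, adjusted p = 2.23e-43). The near-identical miR-103, at 3847 to 9402 RPM, lay close to miR-107 in each plasma sample, whereas the medians over the solid samples were 1717 RPM for miR-103 and 284 RPM for miR-107. The miR-103 entry also carries a miR-107 name, so reads may be shared between both and each level is uncertain. miR-32 ran from 87.3 to 199 RPM in plasma and up to 81.7 RPM in a liver sample (log2 fold 4.53 ± 0.27).

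The arms of miR-331 differed in direction. Of 127 miRNA names with 2 tested entries, 19 had entries called in opposite directions, among them let-7a, let-7b, miR-122, miR-127, miR-133a and miR-221. hsa-miR-331-5p measured 76.4, 231, 141, 155 and 164 RPM in plasma against 3.17 to 39.3 RPM in solid tissue, and was higher than in each tissue (log2 fold 4.13 ± 0.18, adjusted p = 2.74e-32). miR-331, the other arm, measured 3.64, 29.4, 1.44, 3.83 and 3.46 RPM against 22.2 to 608 RPM, and was lower than in each tissue (log2 fold -2.37 ± 0.35, adjusted p = 2.14e-08). Without plasma replicate 2, its highest value, the log2 fold was -3.57. The log2 ratio of the 5p to the 3p reads was 2.95 to 6.04 in plasma and -4.11 to 0 in the solid samples, without overlap. miR-383 was called higher than the mean of the tissues (log2 fold 5.38 ± 0.30, or 4.75 without replicate 2) but varied from 15.9 to 297 RPM between plasma samples and reached 413 RPM in a brain sample.

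White cell markers were unevenly represented. Of 10 tested entries of the leukocyte list 5 were higher in plasma and 3 lower, with a median log2 fold of 1.88. The lower calls became 1 without plasma replicate 1 or 4 or sciatic nerve 1 or 2, with all solid samples as 1 group, and with totals that leave miR-486 out. miR-142, a marker of all blood cell lineages, measured 12752, 34644, 22440, 23395 and 21772 RPM in plasma. Ileum had the highest solid values, with a median of 13936 RPM and a maximum of 15069 RPM that overlapped replicate 1 (log2 fold 5.26 ± 0.31, adjusted p = 2.28e-24). The other arm, hsa-miR-142-3p, had a plasma median of 346 RPM, under the medians of ileum (1797), jejunum (854) and colon (687). It was called higher than the log-scale mean (log2 fold 3.44), but not with all solid samples as 1 group (0.95). miR-223, the myeloid miRNA that platelets also carry, measured 116, 1501, 259, 507 and 236 RPM, above the highest solid value of 93.6 RPM in lung (log2 fold 6.84 ± 0.29, adjusted p = 3.51e-32). miR-150 of mature lymphocytes ran from 313 to 2850 RPM and overlapped the solid tissues, which reached 2689 RPM in thymus (log2 fold 3.70 ± 0.28). miR-155 and miR-146b, both induced on immune activation, were lower, at 25.5 to 240 and 8.49 to 21.8 RPM in plasma, while miR-146a, at 193 to 400 RPM, did not pass the test (adjusted p = 0.249).

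The platelet list varied widely between the plasma samples themselves. Its summed level was 3293, 33331, 5407, 13388 and 7813 RPM in replicates 1 to 5, against 11031 to 93319 RPM in the solid tissues. All 8 of its entries with a plasma median of at least 100 RPM were highest in replicate 2. miR-126, shared by platelets and endothelium, measured 1645, 15785, 2613, 6020 and 3472 RPM, and hsa-miR-28-5p 40.0, 1001, 55.5, 284 and 141 RPM. Of 11 tested entries 3 were higher in plasma and 2 lower, and without replicate 2 these became 2 and 7. The lower calls were 4 without brain replicate 4, 1 without sciatic nerve 1 or 2, and 5 with the deposited totals. Without plasma replicate 2 miR-126, not called with all 5 samples (log2 fold -0.50 ± 0.28, adjusted p = 0.128), was called lower (log2 fold -0.98, adjusted p = 0.00642). It was also called lower without brain replicate 4 (log2 fold -0.70) and with the deposited totals (log2 fold -0.94). Its direction turned without sciatic nerve replicate 1 or 2 (log2 fold 0.17 and 0.19) and with totals that leave miR-486 out (0.07), none of them called. The other arm, hsa-miR-126-3p, was called lower with all 5 plasma samples (log2 fold -1.28, edgeR adjusted p = 0.00032). Its log2 fold was -2.02 without plasma replicate 2, and -0.54 and -0.53 without sciatic nerve replicate 1 or 2. With totals that leave miR-486 out it was -0.70 and not called. Without replicate 2 the endothelial miR-221 lost its call as higher (log2 fold 0.97 became 0.38, adjusted p = 0.362), as did miR-340 of the platelet list (1.13 became 0.61, adjusted p = 0.0535). miR-223 stayed high, at a log2 fold of 6.25. The summed leukocyte list was also highest in replicate 2, at 40876 RPM against 13581 to 25888 RPM in the other 4. Residual platelets or white cells in single plasma samples were not counted in the study, and their part in this spread was not tested.

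The miRNAs of smooth muscle and connective tissue were lower in plasma. Of 19 tested entries 17 were called lower and none higher, with a median log2 fold of -2.92. miR-143, the smooth muscle miRNA and among the most abundant in these tissues, measured 775, 485, 1331, 2184 and 1432 RPM in plasma and 13766 to 604122 RPM in the solid samples. The log2 fold was -5.40 ± 0.56 (adjusted p = 2.41e-13). Its neighbour miR-145 measured 0, 13.6, 7.93, 21.7 and 11.1 RPM, while the lowest solid sample had 104 RPM (log2 fold -6.08 ± 0.66, adjusted p = 9.42e-13). miR-125b ran from 7.28 to 23.6 RPM in plasma against 44.1 to 5949 RPM (log2 fold -5.31 ± 0.52). miR-10b remained abundant in plasma, at 4435 to 13342 RPM, and was called lower (log2 fold -2.08 ± 0.48) although it was higher than in 2 of the tissues. The highest plasma value was in replicate 4 for all 4 entries of this list with a median of at least 100 RPM, and the list's sum ran from 7169.9 RPM in replicate 2 to 20459.9 RPM in replicate 4.

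The let-7 family, differentiation miRNAs found in nearly all adult tissues, was split. Of 14 tested entries 6 were higher and 7 lower, or 3 and 8 with the deposited totals, and the median log2 fold was -0.52. The higher calls were also 3 without plasma replicate 3. let-7a measured 812, 3263, 1092, 1471 and 1508 RPM in plasma against 5156 to 65806 RPM, with no overlap (log2 fold -3.08 ± 0.23, adjusted p = 8.41e-20). Its scarcer arm hsa-let-7a-3p, at 0 to 34.0 RPM in plasma, was called higher. let-7e was nearly absent, at 0, 10.2, 8.65, 7.66 and 5.53 RPM, whereas the solid samples held 133 to 7634 RPM (log2 fold -6.26 ± 0.39, adjusted p = 1.89e-23). miR-125a, encoded in the same cluster as let-7e, ran from 13.0 to 81.1 RPM against 439 to 15940 RPM (log2 fold -4.86 ± 0.43). let-7g lay within the solid tissue range, at 2642 to 4577 RPM against 915 to 9509 RPM. Its log2 fold of 0.52 ± 0.15 passed the test with TMM (adjusted p = 0.00165) but was -0.21 with the deposited totals (adjusted p = 0.437). It was also not called without plasma replicate 3 or 5, skeletal muscle 2, colon 3, brain 4 or kidney 5, each left out alone (log2 fold 0.23 to 0.34). let-7f and let-7c were lower than in each tissue, and let-7d, at 98.3 to 353 RPM, was higher than in each.

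The remaining miRNAs with plasma below every solid sample were led by abundant tissue miRNAs. miR-26a measured 459, 7712, 765, 2371 and 1526 RPM in plasma and at least 15631 RPM in every solid sample, and its highest plasma value was again replicate 2 (log2 fold -3.43 ± 0.34, adjusted p = 5.28e-14, or -4.08 without that replicate). miR-30a, highest in kidney, ran from 652 to 1675 RPM against at least 6527 RPM (log2 fold -3.73 ± 0.35), and its other strand hsa-miR-30a-3p from 14.6 to 45.3 RPM against at least 74.9 RPM (log2 fold -3.86 ± 0.44). miR-204, an epithelial and kidney miRNA here highest in kidney by median at 7234 RPM, was close to the limit of detection, at 0, 1.13, 3.60, 1.92 and 5.53 RPM (log2 fold -6.28 ± 0.64, adjusted p = 1.01e-13, or -6.99 without replicate 5). miR-708 and miR-149 completed the 14 miRNAs below every solid sample, and were named after their values were seen. hsa-miR-30c-2-3p was likewise near the limit of detection, at 0 to 3.64 RPM against at least 9.45 RPM in the solid samples. Replicates 1 and 5 held the lowest values of miR-195, and replicate 1 had no read of let-7e, miR-145 or miR-204. With 274790 reads, 3 reads in replicate 1 correspond to 10.9 RPM, which is the level that a count of 0 allows there.

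**Figure D4:**
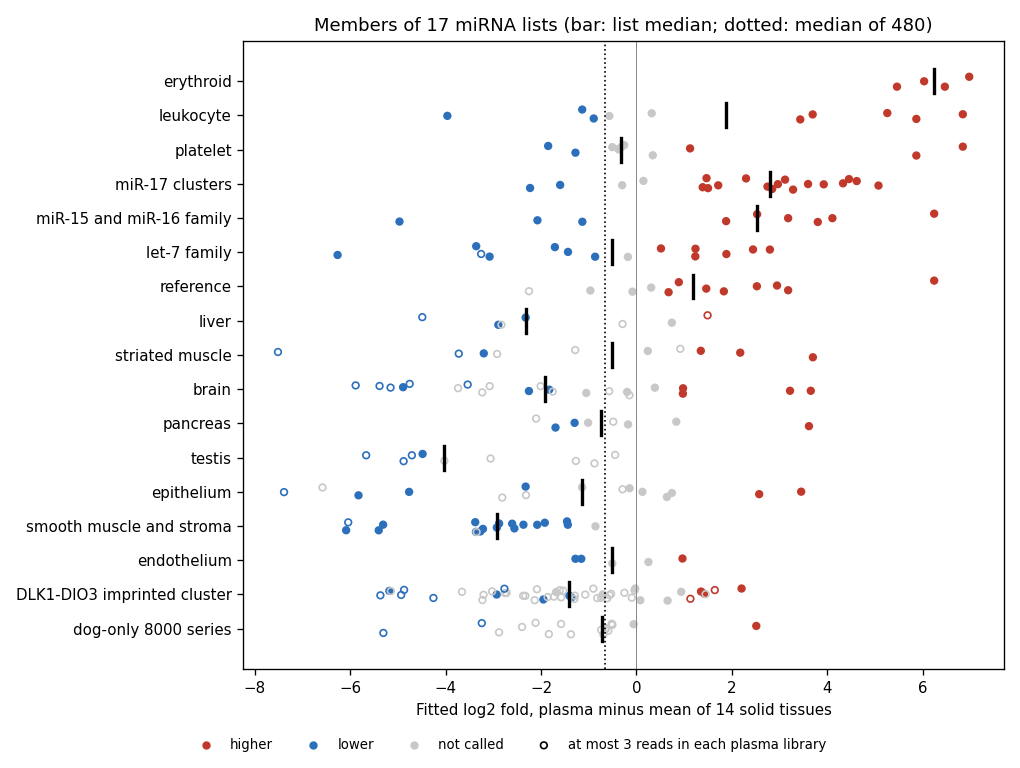
Fitted log2 fold of plasma minus the mean of the 14 solid tissues for each tested member of 17 miRNA lists; red points were called higher, blue lower and grey not called, open points had at most 3 reads in each plasma library, black bars mark list medians and the dotted line the median of all 480 (-0.66). The erythroid bar lies furthest right at 6.25 and that of the testis list furthest left at -4.03, where 8 of 9 points are open.

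Organ miRNAs answer a further question, namely what share of the plasma reads each took in untreated animals. The levels and ratios below are of RPM, so they compare shares of reads and not amounts. The liver marker miR-122 had 1 read in the 6440642 plasma reads of the 5 libraries together, or 0.155 RPM (95% Poisson interval 0.00393 to 0.865), against a liver median of 22008 RPM. The ratio of the liver median to this plasma level was 141743, with a counting interval from 25440 to 5598550. Its other arm, hsa-miR-122-3p, had 5 reads against a liver median of 838 RPM. On those few reads it was called higher than the log-scale mean of the tissues, most of whose samples had none. miR-885, placed on the liver list but highest in brain, had 7 plasma reads. miR-192 was different, at 9294, 10683, 16762, 30131 and 10529 RPM in plasma, the twelfth highest level, within the solid range of 504 to 398717 RPM and not called (log2 fold 0.74 ± 0.35, adjusted p = 0.0623). Leaving out plasma replicate 2, duodenum 2 or 4, brain 3 or sciatic nerve 1 or 2 gave a call as higher, at log2 folds of 0.72 to 1.29, as did RLE and DESeq2 size factors (both 0.88) and totals that leave miR-486 out (1.24). With all solid samples as 1 group it was -1.66 and not called. It is an epithelial miRNA with its highest median in jejunum, at 302243 RPM. miR-194, which shares its primary transcript, was called lower, at 36.4 to 148 RPM (log2 fold -2.32).

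Muscle miRNAs were scarce in plasma. miR-1 and miR-206 had no read in the 5 plasma libraries, which allows up to 0.466 RPM over the group. The heart median of miR-1, 4429 RPM, was thus at least 9509-fold higher, and the skeletal muscle median of miR-206, 276 RPM, at least 591-fold higher. miR-133a, at 80340 RPM in heart, was present in every plasma sample at 19.8 to 53.7 RPM, 0.0386% of the heart median. miR-499 of slow and cardiac muscle, at 32.8 to 104 RPM, reached 1.36% of its heart median of 3752 RPM and was higher than in 12 of the tissues and lower than in 2, with a log2 fold of 1.35, or -1.93 and not called with all solid samples as 1 group. With the deposited totals it was 0.71 and not called. Of the 10 muscle entries tested, 3 were called higher than the mean of the tissues and 3 lower, near the shares over all 480, and none was higher with all solid samples as 1 group.

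Among the brain miRNAs, miR-124 had no plasma read against a brain median of 2971 RPM, which was at least 6379-fold higher by the same 3-read limit. miR-9 had 5 reads in all against 38121 RPM. miR-128 was the exception. It measured 1649, 3224, 3712, 4284 and 3244 RPM in plasma, 9.53% of the brain median of 34047 RPM, and was higher than in the other 13 solid tissues (log2 fold 3.66 ± 0.23, adjusted p = 1.59e-23). With all solid samples as 1 group the log2 fold was 1.72 and not called. Of the 22 brain entries tested, 4 were higher and 8 lower than the tissue mean (2 higher without plasma replicate 3 or 5 or with the deposited totals, and none with all solid samples as 1 group), and 12 had at most 3 reads in each plasma library. Of the 9 testis entries, 7 had no plasma read, among them miR-449a and miR-34b with testis medians of 3159 and 2175 RPM, and miR-34c had 9 reads against 49237 RPM. Of the pancreas entries, miR-148a was found at 2231 to 3838 RPM and miR-375 at 110 to 1055 RPM, 0.820% and 0.191% of their pancreas medians of 406344 and 148274 RPM. miR-216a, present at 6.23 to 51.1 RPM, was higher than in 13 tissues and lower than in pancreas, where its median was 4143 RPM (log2 fold 3.62, or 3.0 without plasma replicate 4 and -3.46, not called, with all solid samples as 1 group). miR-217 had 10 plasma reads and miR-216b 7.

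**Figure D5:**
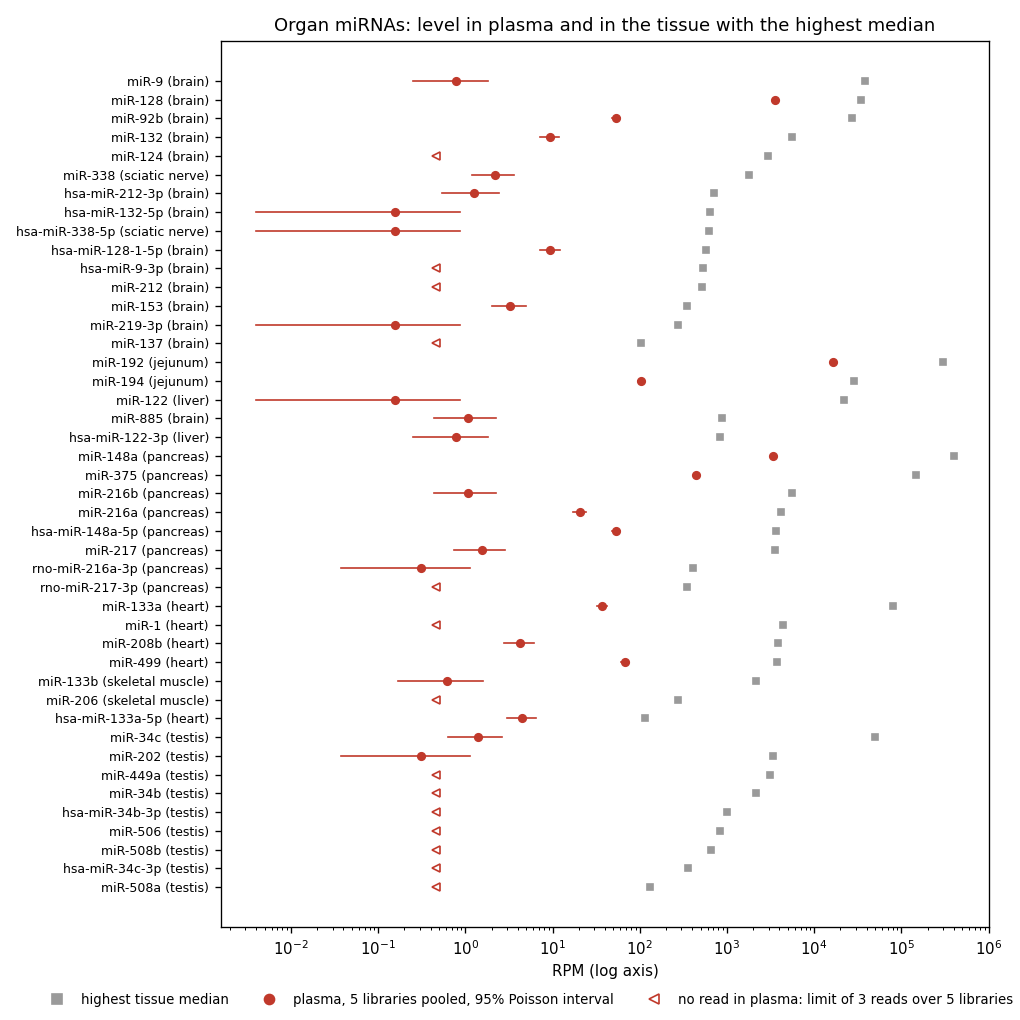
Level of miRNAs of the liver, striated muscle, brain, pancreas and testis lists that have a median of at least 100 RPM in a solid tissue, in RPM on a log axis; grey squares are the median of the tissue named in brackets, the one with the highest median, red points the 5 plasma libraries pooled by reads with a 95% Poisson interval, and open red triangles the 3-read limit of 0.466 RPM where no plasma read was found. miR-192 has the highest plasma point, and the triangles are most frequent in the testis rows, with 7 of 9.

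The epithelial list, which contains miR-192 and miR-194 as well, had 2 of 15 tested entries higher than the log-scale tissue mean, miR-203 and miR-205, and 4 lower. The plasma median of miR-203, 261 RPM, was under those of jejunum (890), colon (505), ileum (374) and duodenum (280). miR-205 had 56.8 RPM in the pooled plasma reads against a testis median of 415 RPM. The higher calls were 5 with the gut tissues averaged as 1 and none with all solid samples as 1 group. miR-141 measured 251 to 1143 RPM and miR-215 36.8 to 474 RPM, neither of them called, and miR-203, a keratinocyte miRNA, measured 118 to 637 RPM (log2 fold 2.57 ± 0.36, adjusted p = 4.61e-09, or 1.06 and not called with all solid samples as 1 group). The DLK1-DIO3 imprinted cluster, a large group of brain-rich miRNAs, had 5 of 51 tested entries higher and 10 lower, both under the shares over all 480, and 37 of the 51 had at most 3 reads in each plasma library. The higher calls became 1 without plasma replicate 3, 3 without plasma 4 or 5, 8 without sciatic nerve 2, 2 with DESeq2 or the deposited totals, and none with all solid samples as 1 group. Its most abundant member in plasma was miR-127, at 37.9 to 168 RPM against a brain median of 44471 RPM. Of the 18 tested miRNAs of the dog-specific series with high miRBase numbers, 1 was higher and 2 were lower (1 without liver replicate 1). miR-8859b, the higher one, measured 21.8 to 47.3 RPM.

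Not all miRNAs used as references for normalisation held one level between plasma and the solid tissues. The study reports miR-16, miR-29a and miR-186 as ubiquitous, by its own measure of variation across tissues. The reference list takes either arm of each of its miRNAs, so it also holds rno-miR-16-3p and hsa-miR-425-3p. Of 12 tested entries of this list 8 were higher in plasma and none lower, or 5 and 1 with the deposited totals, and the median log2 fold was 1.18. Among the 8, hsa-miR-425-3p barely passed (adjusted p = 0.0488) and lost its call in 43 of the runs that left out 1 sample. The higher calls were also 5 without plasma replicate 5. miR-29a, at 382, 1272, 821, 1172 and 819 RPM in plasma and 120 to 2656 RPM in the solid samples, had a log2 fold of 0.31 ± 0.23 and was not called (adjusted p = 0.282), although it was called higher without sciatic nerve replicate 1 or 2 (log2 fold 0.82 and 0.86). miR-191 and miR-186 ran from 13934 to 32094 RPM and from 7599 to 15100 RPM in plasma, with log2 folds of 0.68 ± 0.23 and 0.89 ± 0.17 that passed the test under TMM. With the deposited totals these were 0.02 and 0.17, and neither was called. miR-186 also lost its call without plasma replicate 5 (log2 fold 0.55, adjusted p = 0.0548), and miR-191 without any one of plasma replicates 3 and 5, skeletal muscle 2, colon 3, brain 4 and kidney 5 (log2 fold 0.35 to 0.53). miR-140 and miR-425 were higher, with log2 folds of 1.83 ± 0.18 and 2.95 ± 0.45, while the entry hsa-miR-140-5p was not called (-0.08). In the TMM fit miR-16 and miR-103 were higher than in each of the 14 tissues. In RPM, however, the brain median of miR-103, 7085, exceeded its plasma median of 5770.

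As a description of the whole profile, Spearman's rho across the 650 miRNAs averaged 0.893 between plasma samples (10 pairs, 0.834 to 0.933), the lowest values being those of replicate 1. Between plasma and a solid tissue it averaged 0.805 for liver, 0.801 for lung and for ileum, and was lowest for testis (0.674) and brain (0.635). With bone marrow it averaged 0.777. In the separate contrasts plasma was higher than brain for 139 miRNAs and lower for 214, the most in either direction, and in lung the calls were nearly even, at 133 higher and 130 lower. These points share libraries, depth and miRNAs, so the order of near values such as liver, lung and ileum is not resolved by their ranges.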

How the data were processed

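miR-seq was done on 16 tissues of beagle dogs. Per the labels and the study's methods, the authors built TruSeq small RNA libraries, clipped adaptors, aligned reads without mismatches to CanFam 3.1, and assigned them to dog, rat and human miRNA loci. The deposited values used here are read counts per miRNA and sample, in which several miRNA names can share 1 entry. Of 77 labelled samples 76 had values, 1 labelled colon sample had none, and 1 sample name in the files matched no label and was not used.

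Absent entries were set to 0 and RPM was computed from the counts. Counts were fitted with edgeR 4.0.16 (R 4.3.3), using TMM factors on the deposited totals, filterByExpr by tissue and a quasi-likelihood model with 1 mean per tissue over all 76 samples. Plasma was contrasted with the unweighted mean of the 14 solid tissue coefficients, which are on a log scale, and with each tissue. Benjamini-Hochberg adjustment was over 480 miRNAs at 0.05. Every adjusted p printed comes from this test unless another tool is named. Alternatives were DESeq2 1.42.0, an exact rank-sum test, other scalings and filters, and leaving out each sample. Members, miRNA lists and tests were chosen with earlier results of these data known. The miRNAs named were the 10 most abundant in plasma, up to 12 per direction with the largest folds among those without overlap, members of the lists, the reference miRNAs, and some that the study names for plasma. Plasma libraries held 274790 to 1765863 reads, so that 3 reads equal 1.70 to 10.9 RPM, and intervals cover counting error only. Gene neighbourhoods come from RefSeq on UU_Cfam_GSD_1.0. Mature sequences were not used here.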

Additional observations from a re-analysis of the deposited data

Results flagged for a closer look

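In 106 checks of the 5 plasma values, 12 had 1 sample further from the others than Dixon's 95% critical ratio of 0.71 allows; chance flags about 1 group in 20. Of these, 8 were in replicate 1, the shallowest library, with 274790 reads and 229 miRNAs detected. It was lowest for miR-144 (1925 RPM), miR-16 (18530.5 RPM) and miR-25 (13891 RPM), and it had 0 RPM of let-7e, hsa-miR-128-1-5p and hsa-miR-186-3p, where 3 reads would equal 10.9 RPM. Replicate 2 was highest for miR-331 (29.4 RPM) and for miR-122 (0.566 RPM, 1 read), and it had 0 RPM of hsa-miR-133a-5p. Replicate 4 held the only reads of miR-202 in plasma (1.28 RPM, 2 reads). The causes were not tested.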

How the results depend on the processing

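The 138 miRNAs higher in plasma became 75 with all solid samples as 1 group and 71 by an exact rank-sum test on RPM, which called 26 at least 5-fold higher in place of 66. The 46 higher than each tissue became 23 with library sizes as deposited, and the 32 lower than each became 21 with a mean of at least 10 RPM, a filter that tests fewer miRNAs. The 15 above every solid sample became 33 with RPM from TMM library sizes and 37 with totals that leave out miR-486, with which the 14 below became 9. With plasma replicates 3 to 5 alone, an alternative chosen after seeing the data, these were 25 and 26. The median number of miRNAs detected per plasma library was 241 when thinned and 203 at 10 reads or more, in place of 360.

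Leaving out 1 sample at a time gave 18 to 39 miRNAs lower than each tissue, 15 to 24 above and 14 to 26 below every solid sample, 115 to 167 higher and 111 to 157 lower than the tissue mean. let-7g turned to -0.21 on the log2 scale with deposited library sizes (edgeR adjusted p = 0.437). With all solid samples as 1 group miR-216a turned to -3.46, miR-499 to -1.93 and hsa-miR-133a-5p to -1.53. That setting fits 1 mean to all solid samples, in which a tissue with a very high level weighs more than in the mean of log-scale coefficients. The 2 settings thus compare plasma with different averages. The cause of each turn was not tested. Of the 71 named miRNAs called, 53 kept their call in each of the 12 alternative fits and each run without 1 sample that tested them. The rank-sum test was not among these. Depth limits values near 0, above all in replicate 1. No paired analysis was possible because no label names the dog of a sample.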
